A study of Rattus norvegicus with 11 samples.

Results

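Of the 15607 genes in the deposited table, 7 were followed in RNA sequencing libraries of the rat medial prefrontal cortex (mPFC). These 7 members were taken by a list of Ensembl identifiers, which was drawn up with earlier results of these data known: the growth factor gene Igf2 (ENSRNOG00000020369), Igfbp2 (ENSRNOG00000016957), and 5 genes of the extracellular matrix that fibroblasts of the meninges make in quantity, namely Col1a1 (ENSRNOG00000003897), Col1a2 (ENSRNOG00000011292), Col3a1 (ENSRNOG00000003357), Dcn (ENSRNOG00000004554) and Fn1 (ENSRNOG00000014288). All 7 identifiers were in the table. The animals were Sprague-Dawley rats aged 2 to 3 months with no transgene and no drug, in 3 groups: 4 males, 3 females in proestrus, the stage with high ovarian hormones, and 4 females in diestrus, a stage with low hormones. Each library came from tissue punches cut from frozen sections, which hold all cell types of the cortex. Males and females were housed in separate rooms per the study's methods, so sex and room cannot be told apart.

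IGF2 is a secreted growth factor of the insulin family that acts through cell surface receptors. IGFBP2 is a secreted protein that binds it and sets how much of it is free. In the adult rodent brain both transcripts are abundant in the leptomeninges and choroid plexus, and the leptomeninges lie on the surface of the mPFC. Type I collagen is a fibre built from the chains of Col1a1 and Col1a2, and type III collagen is built from Col3a1. Decorin, from Dcn, is a small proteoglycan that coats collagen fibres, and fibronectin, from Fn1, is a glycoprotein that cells hold on to and that blood vessels also make. These genes were compared to ask whether they varied together from animal to animal, as genes of one tissue caught in a punch would.

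The start regions of the members with an entry in the RefSeq promoter set used here are shown because these genes differed between the sexes. Igf2, Igfbp2 and Col1a2 had entries, with 4 windows in all since Igf2 had 2 starts. Each line gives the 180 bases just before the start of transcription on build GRCr8, which is not the build of the counts. The capitals mark a GC box (GGGCGG) or a TATA box (TATAAA). The first Igf2 window is chr1:207253981-207254160, minus strand.
Igf2 start 1: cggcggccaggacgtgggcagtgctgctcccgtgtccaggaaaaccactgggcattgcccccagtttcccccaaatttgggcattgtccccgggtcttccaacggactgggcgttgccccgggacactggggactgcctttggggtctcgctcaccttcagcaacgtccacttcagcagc
The second Igf2 window is chr1:207250476-207250655, minus strand.
Igf2 start 2: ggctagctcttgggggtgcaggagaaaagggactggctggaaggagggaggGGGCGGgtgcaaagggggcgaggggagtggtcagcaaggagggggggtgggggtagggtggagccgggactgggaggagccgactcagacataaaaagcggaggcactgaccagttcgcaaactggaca
The Igfbp2 window is chr9:81864631-81864810, plus strand.
Igfbp2: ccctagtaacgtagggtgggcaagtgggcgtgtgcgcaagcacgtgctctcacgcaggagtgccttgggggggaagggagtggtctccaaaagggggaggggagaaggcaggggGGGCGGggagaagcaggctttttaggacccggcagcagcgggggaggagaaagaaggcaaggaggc
The Col1a2 window is chr4:33518377-33518556, plus strand.
Col1a2: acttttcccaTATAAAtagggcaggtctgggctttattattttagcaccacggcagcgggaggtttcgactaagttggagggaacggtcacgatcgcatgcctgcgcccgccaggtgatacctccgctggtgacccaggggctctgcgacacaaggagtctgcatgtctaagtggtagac
In the 250 bases before each start, searched on both strands, a GC box began 129 bases before the second Igf2 start and 66 bases before the Igfbp2 start. Of all 33469 windows of this length, 30.5% held a GC box. A TATA box began 170 bases before the Col1a2 start, and 12.9% of all windows held one. The letters CCAAT stood on the minus strand of the Col1a2 window, 221 bases before its start, and were found in 34.0% of all windows. None of the 4 windows held GCGTGGGCG, the motif of the factor Egr1, which 0.478% of all windows held. No motif was shared by all of them, and these matches are only letters in a window.

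The libraries held 15.9 to 24.6 M reads on genes. Levels are given as DESeq2-normalized counts, which are reads divided by 1 size factor per library, and each library is a biological replicate per the study's methods. A member had 128 to 2939 reads in a library, for which counting error alone is 8.84% to 1.84%. Normalized counts are not divided by gene length, so levels are compared between groups and not between genes. The neuron list of 6 genes summed to 43942 to 53658 normalized counts in the 11 libraries, of which Uchl1 alone had 22592 to 32298. There was no other tissue to compare with, so these genes do not check the labelled region.

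Igf2 was about 2-fold more abundant in males than in females. In males it had 2401, 2846, 2128 and 2844 normalized counts in replicates 2, 3, 4 and 5. In diestrus it had 1039, 1201, 1125 and 1737 in replicates 2, 3, 4 and 5, and in proestrus 860.4, 1151 and 1083 in replicates 1, 3 and 5. Every female was below every male, and the highest female, diestrus replicate 5, stood well above the other 6 females. The means were 2555 ± 353 in males (SD, n = 4), 1276 ± 314 in diestrus (SD, n = 4) and 1032 ± 152 in proestrus (SD, n = 3), in that order, and the 2 stages overlapped.

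Igfbp2, the binding protein, had the same order of the sexes. In males it had 1295, 1533, 1162 and 1869 normalized counts in replicates 2 to 5. In diestrus it had 718, 765, 712 and 805, and in proestrus 625, 881 and 733. No female reached the lowest male, and the diestrus libraries lay close together with a coefficient of variation (CV) of 5.84%. The means were 1465 ± 310.0 in males (SD, n = 4), 750.0 ± 43.8 in diestrus (SD, n = 4) and 746 ± 128 in proestrus (SD, n = 3), and the stages overlapped.

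The fibrillar collagen genes followed. Col1a1 had 1333, 1328, 1552 and 1515 normalized counts in males, 698, 789, 814 and 1037 in diestrus, and 639.8, 1092 and 863 in proestrus, each in the order of replicate numbers given above. Col1a2 had 1289.9, 1443, 1566 and 1997 in males, 641, 733, 799 and 1033 in diestrus, and 721, 1042 and 906 in proestrus. For both chains of type I collagen all 7 females lay below all 4 males, with a male mean 1.69 times the female mean for Col1a1 and 1.88 times for Col1a2. Col3a1 had 859, 896, 1199 and 1113 in males, 395, 501, 667 and 825 in diestrus, and 447, 629 and 669.5 in proestrus. Its groups did not overlap either, but diestrus replicate 5 came close to the lowest male, and the CV in diestrus was 31.6%.

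The proteoglycan and the glycoprotein separated the sexes less. Dcn had 208, 222, 247 and 288 normalized counts in males, 162, 139.5, 235 and 209 in diestrus, and 155, 163 and 197 in proestrus. Diestrus replicates 4 and 5 were within the male range, so that 5 of 7 females lay below the lowest male. Fn1 had 779.9, 610.2, 766 and 1077 in males, 483, 648, 526 and 609 in diestrus, and 551, 584 and 682 in proestrus. Here too 5 of 7 females lay below the lowest male, and diestrus replicate 3 and proestrus replicate 5 were above it. The male mean was 1.34 times the female mean for Dcn and 1.39 times for Fn1, against 2.18 times for Igf2 and 1.96 times for Igfbp2.

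**Figure D1:**
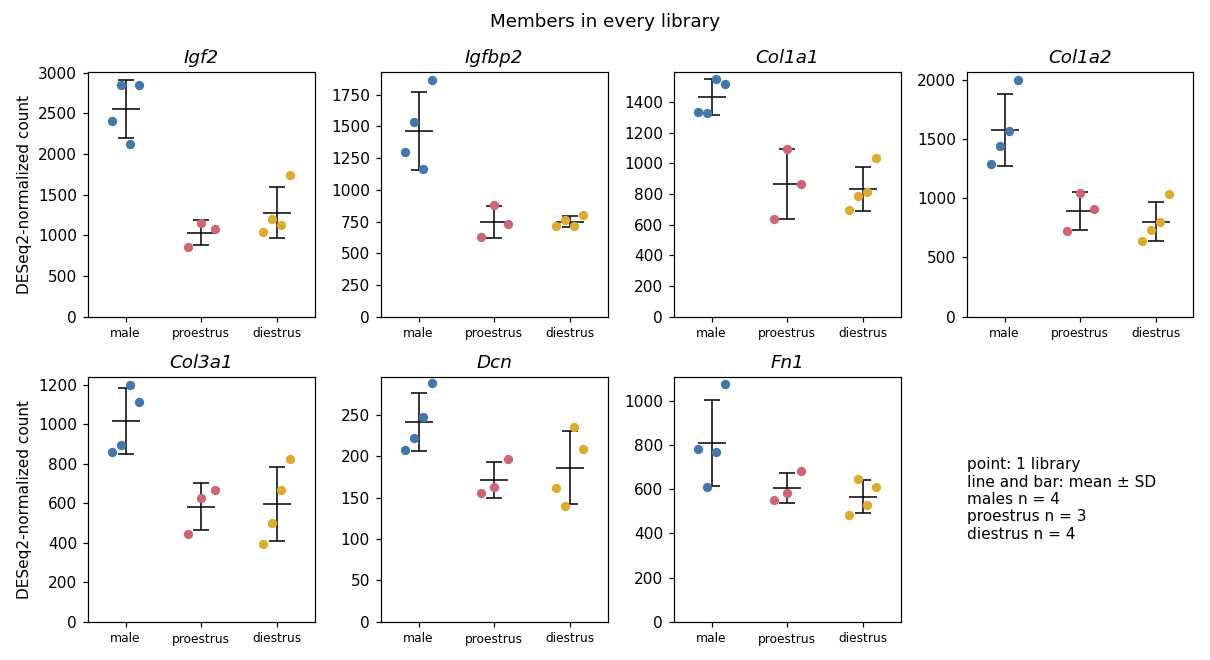
DESeq2-normalized count of each member (vertical axis, from 0) in every library of the 3 groups (horizontal axis), with the mean and SD in black. All 7 females lie below all 4 males for Igf2, Igfbp2, Col1a1, Col1a2 and Col3a1, while Dcn and Fn1 overlap, and proestrus and diestrus overlap in every panel.

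To compare the sexes irrespective of the cycle, the 7 females were set against the 4 males. Of the 7 members, 4 were lower in females past a false discovery rate (FDR) of 0.05, with limma on log2(normalized count + 1) and Benjamini-Hochberg adjustment over all 15607 genes: Igf2, Igfbp2 and both type I collagen chains. Over all genes 19 were lower in females at that threshold, which is 0.122%. Igf2 fell by 1.14 on the log2 scale (SE 0.149, adjusted p = 0.00875). Igfbp2 fell by 0.95 (SE 0.120, adjusted p = 0.00875), Col1a2 by 0.91 (SE 0.146, adjusted p = 0.0275) and Col1a1 by 0.78 (SE 0.132, adjusted p = 0.0371). Col3a1 was at −0.81 (SE 0.179, adjusted p = 0.174), Fn1 at −0.45 (SE 0.134, adjusted p = 0.555) and Dcn at −0.43 (SE 0.147, adjusted p = 0.684), which did not pass. The median over the 7 members was −0.81, against 0.011 over all genes. For 5 of the 7 members every female was below every male, which was so for 0.737% of all genes. In bulk tissue, fewer cells of a type and less RNA per cell cannot be told apart.

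These calls rested on few libraries. The size of the difference moved little when 1 library was left out, with −1.24 to −1.07 for Igf2 and −1.05 to −0.83 for Igfbp2, but the number of members past the FDR ranged from 0 to 4. Without male replicate 3, no member passed (Igf2 and Igfbp2 both at adjusted p = 0.0538 in limma) and 1 gene passed in the whole table. Without male replicate 5, Igfbp2 alone passed, and Igf2 was at adjusted p = 0.0829 and Col1a2 at 0.182. Without male replicate 4, diestrus replicate 3 or 4, or proestrus replicate 1 or 5, Igf2 and Igfbp2 passed and both collagen chains did not, and without diestrus replicate 2 or male replicate 2, Col1a1 alone was lost (adjusted p = 0.0540 and 0.1001). DESeq2 on the recovered reads called 5 members, the fifth being Col3a1 (adjusted p = 0.00879), and 0.44% of the genes to which it gave an adjusted p were lower in females.

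Each stage was then set against the males. Both comparisons share the 4 male libraries, so their values stand side by side and are not independent. In proestrus, 2 of 7 members passed, against 0.0641% of all genes that were lower there: Igf2 fell by 1.31 (SE 0.163, adjusted p = 0.00848) and Igfbp2 by 0.96 (SE 0.146, adjusted p = 0.0280). In diestrus, 3 of 7 passed, against 0.115% of all genes: Igf2 fell by 1.02 (SE 0.151, adjusted p = 0.0263), Igfbp2 by 0.94 (SE 0.136, adjusted p = 0.0263) and Col1a2 by 0.98 (SE 0.160, adjusted p = 0.0339). The other members had negative values in both. In proestrus Col1a2 was at −0.82 and Col1a1 at −0.76 (adjusted p = 0.148 for both), and in diestrus Col1a1 was at −0.79 (adjusted p = 0.0716). Every proestrus library was below every male for 6 of 7 members, Dcn included, which was so for 5.61% of all genes, and every diestrus library for 5 of 7, which was so for 1.92%. At an unadjusted p of 0.05 all 7 members were lower than in males in each comparison, as were 4.22% of all genes in proestrus and 5.86% in diestrus. Without male replicate 5, no member passed in either comparison (Igf2 at adjusted p = 0.0599 in proestrus and 0.131 in diestrus). No member passed in proestrus without proestrus replicate 1 or 5 (Igf2 at 0.0781 and 0.0600), and none in diestrus without diestrus replicate 3 or 4 or proestrus replicate 5 (Igf2 at 0.0962, 0.0947 and 0.0516). Igfbp2 was also lost in proestrus without male replicate 3 (adjusted p = 0.0568), and Col1a2 in diestrus without diestrus replicate 2 or male replicate 4 (0.0853 and 0.0804). Col1a1 was gained in diestrus without diestrus replicate 5, male replicate 3, or proestrus replicate 1 or 3 (0.0419, 0.0389, 0.0239 and 0.0394).

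Between the stages of the cycle, no member passed. In proestrus vs diestrus 0 of 7 members were past the FDR with limma, whereas 2.53% of all genes passed in either direction, a number that ran from 0 to 1774 genes when 1 library was left out (0 without proestrus replicate 1 or 3). At an unadjusted p under 0.05 there were 0 of 7 members and 26.7% of all genes. DESeq2 and edgeR also called 0 members, against 7.63% and 2.7% of the genes with an adjusted p. Igf2 had the value farthest from 0, −0.29 (SE 0.163, adjusted p = 0.257), and the other 6 lay between −0.10 and 0.16 with SE of 0.146 to 0.218.

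**Figure D2:**
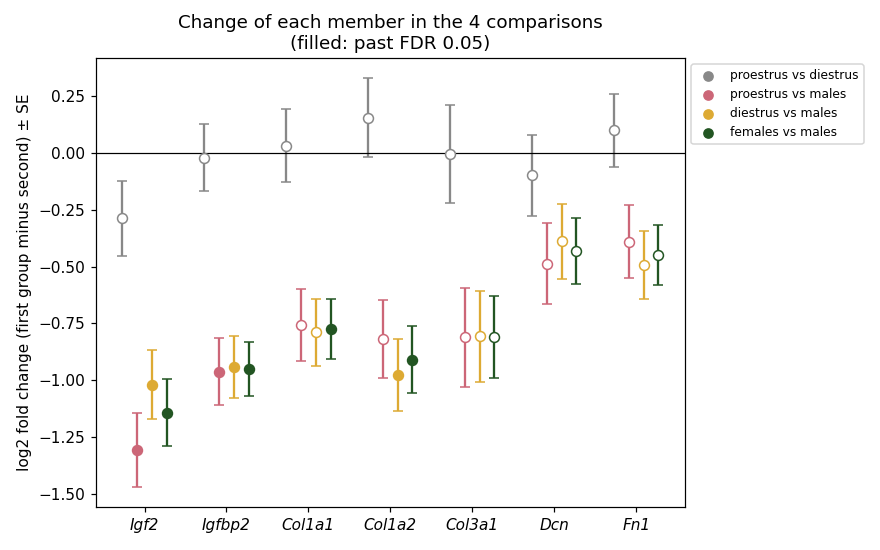
Log2 fold change with its SE (vertical axis) of each member (horizontal axis) in proestrus vs diestrus, proestrus vs males, diestrus vs males and females vs males, filled where the adjusted p was under 0.05. Grey points for the stages lie near 0, between −0.29 and 0.16, and the points against males lie between −1.31 and −0.39.

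Whether the members rose and fell together was examined within groups, since over all 11 libraries the sex difference itself ties them: there 21 of 21 pairs had a permutation p under 0.05 after adjustment over the 21 pairs, and 16 did so without male replicates 3 and 5, the libraries farthest from the median of Igf2. After each library was expressed as its deviation from its group mean, all 21 pairs still had a positive Pearson r, from 0.238 to 0.864 with a median of 0.589, but 4 passed in exact permutation tests within groups (3456 permutations, two-sided). The collagen genes formed 3 of these 4. How many pairs of other genes pass was not counted, over all libraries, within groups or in the females alone. The counts of pairs therefore do not set the members apart from other genes. Among 11730 genes ranked by r with Col1a2 within groups, Col1a1 had rank 24 and Col3a1 rank 30. With Igf2, Igfbp2 had rank 49. Col1a1 and Col1a2 had r = 0.864 (permutation adjusted p = 0.0182, Spearman's rho 0.873 with adjusted p = 0.0395). Col1a2 and Col3a1 had r = 0.852, and Col1a1 and Col3a1 had r = 0.825 (permutation adjusted p = 0.0258 for both), with rho of 0.836 and 0.800 that did not pass (adjusted p = 0.0623 for both).

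Igf2 went with Igfbp2 within groups. The pair had r = 0.727 (permutation adjusted p = 0.0182) and rho = 0.827 (adjusted p = 0.0395). With the matrix genes Igf2 had r = 0.770 for Col1a2 (permutation adjusted p = 0.0924), 0.694 for Col1a1 (0.131), 0.607 for Col3a1 (0.202), 0.343 for Fn1 (0.387) and 0.325 for Dcn (0.512), none of which passed. Diestrus replicate 5 and proestrus replicate 3 had the deviations of Igf2 farthest from the median, and without them r was 0.806 for Igfbp2 but 0.587 for Col1a2, 0.430 for Col1a1 and 0.330 for Col3a1. Leaving out the 2 libraries farthest in the first gene of each pair gave 0.877, 0.851 and 0.930 for the collagen pairs in the order above.

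The 7 females were also taken alone. There 20 of 21 pairs had a positive r, from −0.044 for Dcn and Fn1 to 0.929 for Col1a1 and Col1a2, and 2 passed in exact permutation tests over 5040 permutations: Col1a1 with Col1a2, and Igfbp2 with Col1a1 at r = 0.911 (permutation adjusted p = 0.0458 for both), though the rho of neither pair passed. No pair with Igf2 did (r of 0.332 to 0.731). The 4 males leave little power for a test of a correlation, and none was run. Among them replicate 4 had the lowest Igf2 and Igfbp2 (2128 and 1162 normalized counts) and the highest Col1a1 and Col3a1 (1552 and 1199). Some libraries stood at the same end for many members: proestrus replicate 1 was the lowest of its group for 7 of 7, diestrus replicate 2 was the lowest for 5 of 7 and diestrus replicate 5 the highest for 5 of 7, and male replicate 5 was the highest for 4 of 7. Others did not: male replicate 4 was the lowest for 2 and the highest for 2, male replicate 3 the lowest for 2 and the highest for 1, and diestrus replicates 3 and 4 each the lowest for 1 and the highest for 1. How often each library was lowest or highest over all genes was not counted. Summed over the members, the reads divided by each library's total in M were 204 to 325 in diestrus, 216 to 297 in proestrus and 423 to 574 in males.

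**Figure D3:**
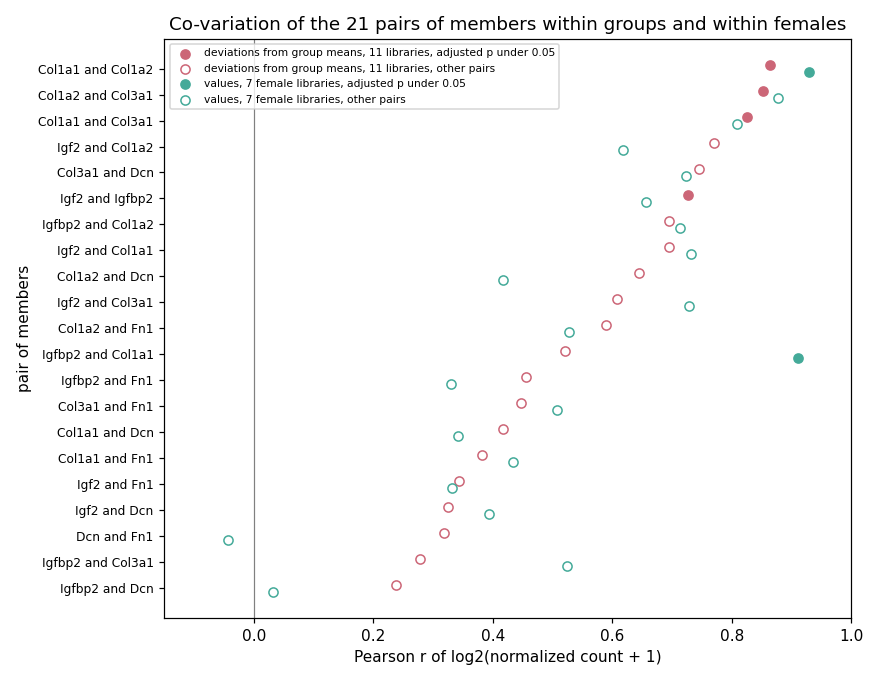
Pearson r of log2(normalized count + 1) for each of the 21 pairs of members (vertical axis, by r within groups), for deviations from group means in 11 libraries and for values in the 7 females, filled where the permutation adjusted p was under 0.05. The 3 collagen pairs lie at 0.808 or above in both, and the lowest values are for Igfbp2 with Dcn within groups and Dcn with Fn1 in females.

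The members were next set against each other within a library, to give the ratio of Igf2 to the rest in each sex. These ratios were set up after the members' changes were seen, and their differences follow from those changes. Since Igf2 had the largest fall, all 6 differences were bound to be negative. The ratio of Igf2 to Dcn was 8.61 to 12.8 in males and 4.78 to 8.61 in females, lower in females by 0.71 on the log2 scale (SE 0.187, exact permutation adjusted p = 0.0364), and every female was below every male, the closest by less than the rounding. The ratio of Igf2 to Fn1 was 2.64 to 4.66 in males and 1.56 to 2.85 in females, with a log2 difference of −0.69 (SE 0.203, exact permutation adjusted p = 0.0364). Against the collagen genes and Igfbp2, the differences of −0.37 (SE 0.148) for Col1a1, −0.33 (SE 0.186) for Col3a1, −0.23 (SE 0.163) for Col1a2 and −0.19 (SE 0.131) for Igfbp2 did not pass (exact permutation adjusted p = 0.0848, 0.159, 0.203 and 0.203). The family held 6 ratios, each tested two-sided over 330 splits, with a smallest possible p of 0.00303. The ratios to Dcn and Fn1 passed without diestrus replicate 5 or male replicate 4, and neither passed without any other single library (exact permutation adjusted p of 0.05 to 0.125). Igf2 to Col1a1 was gained without diestrus replicate 5 or male replicate 4 (0.0429 and 0.0250), and Igf2 to Igfbp2 without diestrus replicate 5 (0.0381). The ratio of Igf2 to Col1a2 was 1.10 to 1.20 in proestrus, 1.41 to 1.68 in diestrus and 1.36 to 1.97 in males; this order of the stages was seen in the values and was not tested.

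Type VI collagen, which fibroblasts also make, served as a comparison chosen after its values were seen. Col6a1 had 917 to 1549.7 normalized counts in males and 779 to 1602 in females, and Col6a2 had 484 to 648 and 471 to 617, so both overlapped. Their log2 differences in females vs males were −0.05 and −0.13 (limma, adjusted p = 0.9997 for both). The ratio of Col1a2 to Col6a2 was 2.55 to 3.08 in males and 1.12 to 1.92 in females, without overlap, and that of Col1a2 to Col6a1 was 0.847 to 1.66 and 0.462 to 1.16, with overlap. These ratios were chosen for their values and were not tested.

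Other genes of the matrix were read from lists that rest on the study's annotation of identifiers. No gene of these lists passed the FDR in females vs males: 0 of 10 interstitial matrix genes, 0 of 5 of the basement membrane, 0 of 3 of the brain's own matrix and 0 of 6 that process matrix proteins. By the same limma fit 0.122% of all genes were lower in females. Counts of 0 in lists this short therefore do not set them apart from other genes. The medians of the lists were −0.26, −0.42, −0.074 and −0.19. At an unadjusted p under 0.05, 2, 2, 0 and 1 of them were lower in females and 0 higher, against 2.77% of all genes that were lower at that p. Every female was below every male for Ccdc80, Nid2, Col18a1 and Adamts1, a protease of proteoglycans, which was so for 0.737% of all genes. Adamts1 was at −0.94 in females vs males (limma adjusted p = 0.0993), and Col26a1 and Abi3bp of the interstitial list were at −0.82 and −0.81 (adjusted p = 0.924 and 0.9997). Col18a1, a basement membrane collagen, had 433 to 530.1 normalized counts in males, 333 to 425 in proestrus and 287 to 338 in diestrus, and was lower in diestrus than in males by 0.61 on the log2 scale (limma adjusted p = 0.0339). Tnr, which encodes a protein of perineuronal nets, and Fras1, of the basement membrane, were higher in proestrus than in diestrus by 1.49 and 0.93 (limma adjusted p = 0.0137 and 0.0369). Tnr was lost without proestrus replicate 1 or 3 (0.104 and 0.0790). Fras1 passed without diestrus replicate 5, male replicate 3 or male replicate 4 and was lost without any other single library (0.0544 to 0.152), and Col18a1 passed without diestrus replicate 5, male replicate 3 or proestrus replicate 1 and was lost without any other (0.0516 to 0.146). The genes named for the highest mean counts in these lists were Col11a2 and Col6a1, Col18a1 and Lama4, Spock2 and Tnr, and Plod3 and Adamts1. Such counts depend on gene length, so this order does not rank their expression.

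Markers of the cell types that a punch can hold were read beside the members. The 8 fibroblast genes, which overlap the interstitial list in 6, summed to 2864 to 3247 normalized counts in males and 2249 to 3159 in females, 1.10 times higher in males, with 0 of 8 past the FDR and a median of −0.21. All 8 had a negative log2 difference in females vs males, as had 45.5% of all genes, and for Ccdc80 every female was below every male (−0.46, limma adjusted p = 0.309). None was at 0 in all libraries, though Slc47a1 had only 5.80 to 21.3 normalized counts. The endothelial list of 5 genes summed to 1649 to 1889.9 in males and 1523 to 1781 in females, and the mural list of 4 genes to 3865 to 5153 and 3252 to 4541, with male to female ratios of 1.09 and 1.16. None of these genes passed in females vs males, where 5 of 5 and 3 of 4 differences were negative. Myh11, the smooth muscle myosin gene, was at −0.43 (limma adjusted p = 0.543), with 983 to 1476 normalized counts in males and 756 to 1145 in females. The other mural genes were Mylk at −0.24, Igfbp7, with the highest counts of the list, at −0.12, and Pln at 0.58 (limma adjusted p of 0.845 to 0.9997). Of these lists Heg1, an endothelial receptor gene, passed in proestrus vs diestrus (0.95, limma adjusted p = 0.0439), and was lost without any single library other than diestrus replicate 5, male replicate 3 or male replicate 4 (0.0566 to 0.188). None of the 6 microglial, 5 astrocyte, 3 oligodendrocyte and 6 neuronal genes passed in any comparison, and their summed male to female ratios were 0.994, 1.03, 0.828 and 0.989. Over all genes 2.53% passed in proestrus vs diestrus, and 0.0641% to 0.122% were lower than in males in the other comparisons. Counts of 0 in such short marker lists are near these shares. The oligodendrocyte list moved opposite to the members, with sums of 1494 to 1866 in males and 1888 to 2565 in females, without overlap, though none of its genes passed. Gpr37, a receptor gene of oligodendrocytes, had 869 to 1033 in males and 1049 to 1158 in females (log2 difference 0.18, limma adjusted p = 0.684), and Mog, a myelin protein gene, had 613 to 915 and 792 to 1381 (0.38, limma adjusted p = 0.913). The part of white matter, meninges or vessels in a punch for the members' difference was not tested, nor was the cell type that the members' reads came from.

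**Figure D4:**
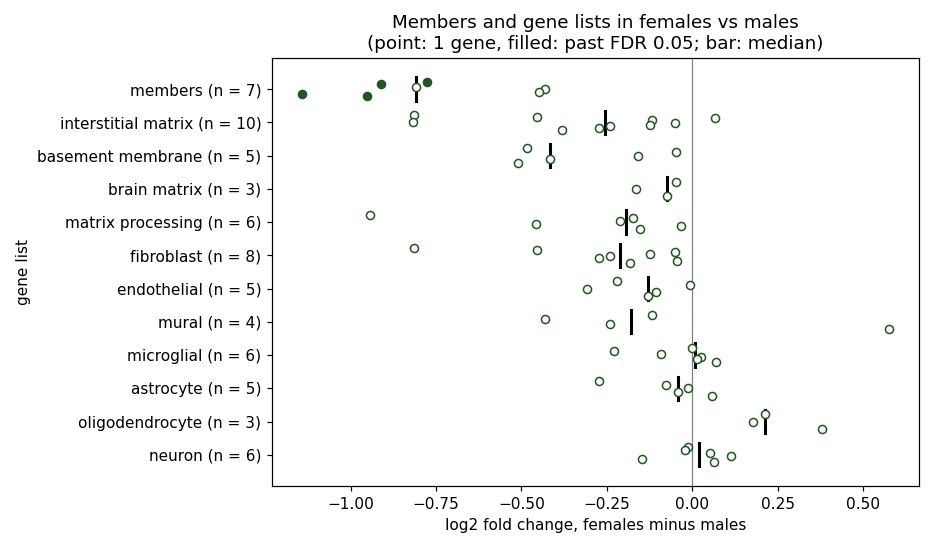
Log2 fold change in females vs males (horizontal axis) of each gene of the members and of 11 gene lists (vertical axis), filled where the adjusted p was under 0.05, with the median of each list as a bar. The 7 members lie between −1.14 and −0.43 with a median of −0.81, and the list medians lie between −0.42 and 0.21. Single list genes lie within the members' range, down to −0.94 for Adamts1.

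Finally, the genes whose levels most resembled those of Igf2 were sought among the 11730 genes that averaged 50 or more normalized counts, by Pearson r over the 11 libraries, a measure that contains the sex difference. Igfbp2 was second with r = 0.946 and Col1a1 eighth with r = 0.910, and Col1a2 had rank 11, Col3a1 26, Dcn 129 and Fn1 160. The others of the 10 nearest were ENSRNOG00000037239, ENSRNOG00000003183, ENSRNOG00000017440, ENSRNOG00000018215, ENSRNOG00000013720, ENSRNOG00000000555, ENSRNOG00000011648 and ENSRNOG00000018087, with r from 0.956 to 0.907. For Col1a2 the nearest genes were Col1a1 (r = 0.963), ENSRNOG00000013720 (0.937) and Col3a1 (0.935), Igfbp2 was sixth and Nid2, a basement membrane gene, ninth, with Igf2 at rank 12. On deviations from group means, which leave the group differences out, the ranks for Igf2 were 23 for Col1a2, 49 for Igfbp2, 80 for Col1a1, 190 for Col3a1, 1197 for Fn1 and 1328 for Dcn. For Col1a2 they were 24 for Col1a1, 30 for Col3a1, 108 for Igf2, 283 for Igfbp2, 502 for Dcn and 842 for Fn1. No member was then among the 10 nearest of either gene. Dcn and Fn1 were the members farthest from Igf2 on both measures.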

How the data were processed

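RNA of mPFC punches from 4 males, 3 proestrus and 4 diestrus females was sequenced as unstranded poly(A) libraries. The authors trimmed reads with Trimmomatic 0.32, aligned them with TopHat2 2.0.11 to Rnor_5.0 and counted them per gene with HTSeq 0.6.1p1, and left out 1 proestrus library. The values in both tables deposited by the authors are a normalized signal. The DESeq2-normalized table (15607 genes) equals whole reads times 1 constant per library, so reads were recovered within a tolerance of 0.01. The edgeR-normalized table (15724 genes) holds reads times 1 of 11 factors of 0.956 to 1.07 that cycle down the rows, is not scaled for depth, and was used only as an alternative. Replicates differed by more than sampling noise in all 15 pairs of the same group (chi-square per degree of freedom 5.04 to 28.3).

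The main test was limma 3.58.1 in R 4.3.3 on log2(normalized count + 1), with a variance trend and Benjamini-Hochberg adjustment over all genes at an FDR of 0.05; this scale understates changes of low counts. Stages and males were compared in 1 fit of 3 groups, and females with males in a fit with sex alone. It was tested on simulated data before use. edgeR 4.0.16 and DESeq2 1.42.0 ran on the recovered reads. Correlations used 100000 resamples or all permutations (SciPy 1.17.1), and ratios were log2 differences within a library; those of Igf2 to the other members were compared by exact permutation.

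All 7 members are named. Genes of the lists are named if they passed in any comparison or were among the 2 with the highest mean of a list, and any further gene, as well as the ratios to type VI collagen, was picked with its values in view. The 10 genes nearest Igf2 are named by r. Members and lists were chosen with earlier results of these data known. Symbols of list genes came from the study's identifier annotation, of which a shortened copy was read, so lists hold only part of each class, and 1 list gene is not reported here. Groups came from the labels alone. No Rnor_5.0 positions and no gene lengths were used here.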

Additional observations from a re-analysis of the deposited data

Results flagged for a closer look

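Among the genes named here, 3 differed between the stages of the cycle by a test of that difference, and all 3 are list genes and not members: proestrus minus diestrus was 1.49 on the log2 scale for Tnr, 0.93 for Fras1 and 0.95 for Heg1 (limma adjusted p = 0.0137, 0.0369 and 0.0439). Over all genes 2.53% passed in that comparison. All 3 calls were lost without proestrus replicate 1 (0.104, 0.152 and 0.188) and without proestrus replicate 3 (0.0790, 0.130 and 0.138), where no gene of the table passed. For each of the 7 members, the highest and lowest library among the 4 males and among the 4 diestrus females was examined for a gap to its neighbour above Dixon's critical value, and 0 of these 14 sets exceeded it. The 3 proestrus libraries were too few for this.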

How the results depend on the processing

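The members' differences from males kept their sign in every fit run. In females vs males, 4 members passed in the reported fit, 3 to 5 under other scalings, pseudocounts, filters and tools, and 0 to 4 when 1 library was left out. In proestrus vs males, 2 passed in the reported fit, 5 with DESeq2 (118 genes of the table) and 5 from the edgeR-normalized table, whose values are not scaled for depth, and 0 to 2 with 1 library left out. In diestrus vs males, 3 passed in the reported fit, 5 with DESeq2 (117 genes), 5 from the edgeR-normalized table, 2 among genes with a mean of 50 or more (Col1a2 at adjusted p = 0.0516), and 0 to 4 with 1 library left out. In proestrus vs diestrus 0 passed in every fit, leave-one-out included. The cause was not tested. Signs reversed only there, in values near 0: from the edgeR-normalized table Col1a1 was at −0.041 and Fn1 at −0.039, and with 1 library left out Col1a1 ranged from −0.15 to 0.23, Col3a1 from −0.18 to 0.18, Dcn from −0.23 to 0.023 and Igfbp2 from −0.15 to 0.10. These turns of sign came without diestrus replicate 2, 4 or 5 or proestrus replicate 1 or 3.

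Of the 21 pairs, 21 passed over all libraries, 15 to 21 with 1 library left out (15 without male replicate 5), 4 on deviations from group means and 2 in the females alone, an alternative that, with the mean of both stages in 1 fit and the ratio checks, was added after the data were seen. Pairs of other genes were not counted in any of these settings.

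The replicate numbers of the labels do not show that libraries were paired. Of 8 pairs with the same number, 6 had a correlation of deviations over 0.1, from 0.0116 to 0.591, and 6 of 11 libraries correlated best with their own number. With the replicate number as a block, 1 member passed against males for proestrus (Igfbp2 was at −0.99 with limma adjusted p = 0.0560) and 5 for diestrus, 4 passed for all females and 0 between the stages, where Col3a1 was at 0.10. The shares of all genes called with the block or from the edgeR-normalized table are not given here, so these counts lack that comparison. A block on the correlations was not run, since too few degrees of freedom were left. The lowest count of a member in a library was 128 reads. Among list genes, Fras1 was also lost with quantile normalization (limma adjusted p = 0.0517) and from the edgeR-normalized table (0.141) and with the replicate block (0.0683), and Col18a1 with quantile normalization (0.0573), from the edgeR-normalized table (0.161) and with genes under a mean of 50 left out (0.0516).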
